A study of Mus musculus with 8 samples.

Results

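The proteasome genes examined here encode the subunits, activators, assembly chaperones and inhibitor of the proteasome, the protease complex that degrades ubiquitin-tagged proteins. Members were the genes whose symbol begins with Psm, a letter from a to g and a digit, leaving out the immunoproteasome genes Psmb8, Psmb9 and Psmb10 and any pseudogene. Of 24413 gene symbols in the files, 50 matched the pattern and 47 were kept, and no pseudogene row was among them. The cells were plasmablasts, proliferating B cell descendants that secrete antibody. B220+ B cells from C57BL/6J spleens received lipopolysaccharide (LPS), a bacterial B cell activator, at 25 µg/ml in a culture of 4 days, after which the CD22-CD138+ fraction was sorted. The Jagn1 knockout group (4 libraries) was Jagn1fl/fl Mb1Cre+, in which Cre is expressed from the B-lineage gene Cd79a, and the control group (4 libraries) was Jagn1fl/fl with no Cre listed. Both groups therefore carried floxed Jagn1 alleles and both were LPS-stimulated. The labels state 4 mice per genotype and give no age. The product of Jagn1 resides in the membrane of the endoplasmic reticulum (ER), and the comparison addressed how gene expression in plasmablasts differs without it.

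In the proteasome a barrel-shaped 20S core of stacked alpha and beta rings encloses the proteolytic sites, and a 19S particle at its end recognises, unfolds and feeds in substrates. The 19S base contains a ring of ATPases, and its lid removes ubiquitin. Misfolded proteins of the ER are moved to the cytosol and degraded by proteasomes, a route of particular use in cells that make large amounts of secreted antibody. When proteasome capacity is limiting, mammalian cells raise the transcription of proteasome genes through NFE2L1, a transcription factor that is itself made in the ER membrane.

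Each library gave raw counts from a 3′ tag kit, which reads the end of polyadenylated transcripts, so that levels are given as CPM (the count as a share of the library's total, scaled with TMM factors) and not divided by gene length. Library totals ran from 5882912 to 10066661 counts. The targeted gene gave 2, 1, 1 and 1 counts in the knockout libraries, against 19, 35, 16 and 99 counts in the control libraries, although the deleted exons are not given and a 3′ tag reports only the transcript's end. Control replicates 1 and 4 deviated most from the mean of their group, with a root mean square log2 deviation of 0.594 and 0.581 over all genes tested, against 0.324 to 0.432 in the other 6 libraries. The summed level of 10 plasmablast markers was 21200 to 27300 CPM in the knockout and 27400 to 34500 CPM in the control. Of the 10, 5 passed the test as lower, as did 316 of all 9904 genes tested. B cell markers summed to 469 to 582 CPM in the knockout and 438 to 608 CPM in the control. T cell markers summed to 14.9 to 23.1 CPM in the knockout and 22.8 to 36.9 CPM in the control. Myeloid, NK cell and erythroid markers each summed to at most 3.16 CPM in any library, and the myeloid markers Lyz2, Cd14, S100a8 and S100a9 were at 0. The part of the plasmablast and T cell markers in the results below was not tested, and in such bulk samples fewer cells of a type and less RNA per cell cannot be told apart.

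The proteasome genes as a group stood at the same level in Jagn1 knockout and control plasmablasts to within the spread between libraries. Summed over the 46 members tested, they took 8456 ± 363 CPM in the knockout and 8446 ± 369 CPM in the control (SD, n = 4 each), a ratio of 1.00. Of the 46, 1 passed the test as higher in the knockout, the 19S ATPase gene Psmc6, and none passed as lower. That is 2.17% of the members, where 5.74% of all 9904 genes tested passed in either direction and 2.54% passed as higher (edgeR's quasi-likelihood test, Benjamini-Hochberg adjusted over all genes tested, threshold 0.05). At an unadjusted p under 0.05 there were 6 members (Psma5, Psmc2, Psmc6, Psmd14, Psme1 and Psme4), 13.0% of them, against 18% of all genes. With DESeq2 the single member that passed was again Psmc6, and with limma-voom and sample weights Psma5, Psmc6, Psmd14 and Psme4 passed, beside 10.8% of all genes tested in that fit. The 2 groups of libraries did not overlap for 2 members, Psmc6 above and Psme1 below, which is 4.35% against 13.1% of all genes.

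The members' median log2 fold change, knockout over control, was 0.04, against -0.01 over all genes tested, and their median size of change was 0.16 on the log2 scale, against 0.27. Fitted values were above 0 for 26 members and below 0 for 20. The 95% interval of the fold change lay within 2-fold in both directions for 40 of 46 members (87.0%) and within 1.5-fold for 25 (54.3%), against 60.2% and 21.9% of all genes tested. Where average log2 CPM was 4 or more, the interval lay within 2-fold for 39 of 41 members (95.1%) and for 85.2% of all genes. For most proteasome genes the data thus bounded the difference, while for Psma5, Psme2b, Psmg1, Psmg2, Psmd5 and Psmc3ip the interval reached past 2-fold.

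**Figure D1:**
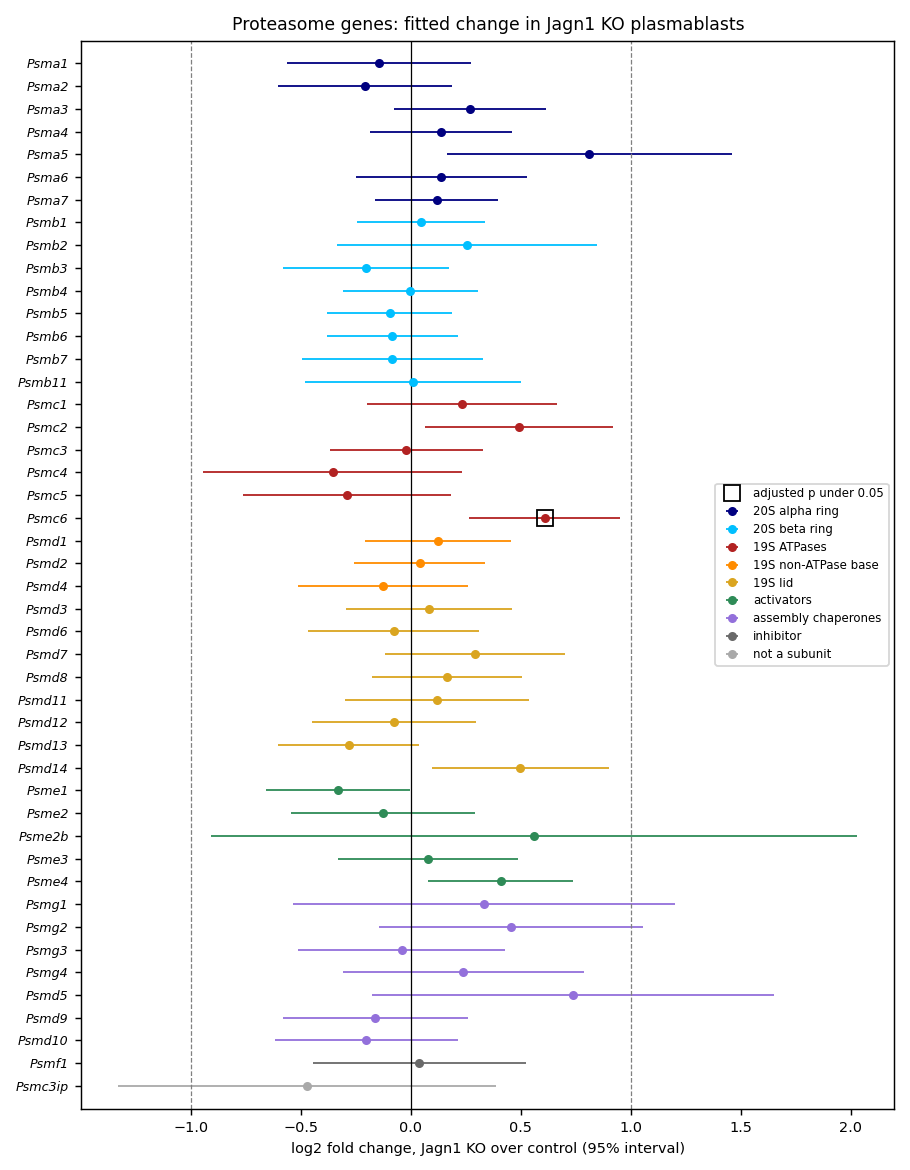
The plot shows the fitted log2 fold change of each of the 46 tested proteasome genes, Jagn1 knockout over control, with its 95% interval, coloured by class, and dashed lines at 2-fold. The open square marks Psmc6, which passed the test at 0.61, and the points run from -0.47 for Psmc3ip to 0.81 for Psma5.

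The alpha ring forms the outer gate of the 20S core, through which substrates enter. None of its 7 tested genes passed the test, and the median log2 fold change was 0.14. Their summed level was 1208 ± 70.9 CPM in the knockout and 1196 ± 153 CPM in the control (SD, n = 4 each). Psma5, the least abundant of them, gave 23.4, 25.4, 26.9 and 22.0 CPM in knockout replicates 1 to 4, against 8.99, 8.22, 12.8 and 25.0 CPM in control replicates 1 to 4. Control replicate 4 stood among the knockout libraries and the other 3 controls stood below them. The log2 fold change of Psma5 was 0.81 ± 0.30 (SE, adjusted p = 0.157), and without control replicate 4 it was 1.27 and passed the test (adjusted p = 0.0021), in a fit in which 8.88% of all genes passed. It was 0.63 without control replicate 2 and did not pass (adjusted p = 0.3485). Psma3 gave 107, 96.5, 97.2 and 96.4 CPM in the knockout libraries and 60.8, 80.7, 88.9 and 98.7 CPM in the control libraries, with a log2 fold change of 0.27 ± 0.16 (SE, adjusted p = 0.424). Only control replicate 4 reached the range of the knockout libraries. The other alpha genes had log2 fold changes from -0.21 (Psma2) to 0.14 (Psma4 and Psma6).

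Psma8 encodes a form of an alpha subunit found in testis. It gave 0 counts among 30694032 in the knockout libraries and 1 count among 30512840 in the control libraries and was not tested. A count of 0 over the group allows up to 3 counts, 0.0977 CPM in the knockout, and covers counting error only.

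The beta ring holds the proteolytic sites, and the 3 catalytic subunits differed by less than the spread between libraries. Psmb5, whose site cuts after hydrophobic residues, gave 603, 586, 505 and 596 CPM in the knockout and 681, 558, 652 and 558 CPM in the control. Its log2 fold change was -0.10, with a 95% interval from -0.38 to 0.19. Psmb6, whose site cuts after acidic residues, gave 431, 434, 373 and 394 CPM in the knockout and 495, 402, 469 and 364 CPM in the control, a log2 fold change of -0.08 (95% interval -0.38 to 0.21). The groups overlapped for both genes, and the lower ends of the intervals were at 0.769 and 0.768 of the control level. Psmb7, whose site cuts after basic residues, gave 49.0, 61.8, 60.5 and 58.6 CPM in the knockout and 52.3, 43.3, 66.7 and 80.9 CPM in the control. Its log2 fold change was -0.08 (95% interval -0.50 to 0.33), and it was 0.08 without control replicate 4.

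The structural beta genes did not pass the test either. Psmb2 had 32.8, 29.5, 23.5 and 16.5 CPM in the knockout and 12.4, 18.9, 23.5 and 30.4 CPM in the control, with both groups spread over about the same range. Psmb2 had a log2 fold change of 0.26 ± 0.28 (SE, adjusted p = 0.701). Psmb3 had 299, 253, 222 and 204 CPM in the knockout and 211, 287, 261 and 368 CPM in the control, a log2 fold change of -0.20 ± 0.18 (SE, adjusted p = 0.610). Psmb1 and Psmb4 had log2 fold changes of 0.04 and 0.00. None of the 8 beta genes passed the test, the median was -0.04, and the summed level was 2339 ± 128 CPM in the knockout and 2427 ± 136 CPM in the control (SD, n = 4 each).

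Psmb11 encodes the beta subunit of the thymic cortex, and counts assigned to it came to 81.2 to 104 CPM in the knockout and 51.7 to 136 CPM in the control. Psmb11 lies 3410 bases from Psmb5 on chromosome 14, with Psmb11 on the plus strand and Psmb5 on the minus strand, so that their starts face each other. Stretches of the last 300 bases of Psmb11 transcripts matched transcripts of 21 other genes at 95% identity or more over at least 50 bases. By the same measure Psmd3 matched 49 other genes and Psmc2 matched 10. Whether the counts assigned to Psmb11 come from its transcripts was not tested.

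The immunoproteasome genes encode catalytic subunits that take the places of those in the constitutive core. Psmb8, Psmb9 and Psmb10 together made up 9.24%, 10.5%, 10.6% and 11.3% of the summed CPM of the 6 catalytic genes in the knockout libraries and 6.99%, 10.1%, 10.1% and 15.2% in the control libraries. The knockout libraries lay inside the range of the controls, and none of the 3 genes passed the test, with log2 fold changes of 0.12 for Psmb8, -0.13 for Psmb9 and -0.35 for Psmb10.

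The ATPase ring unfolds substrates and threads them into the core, and it held the member that passed the test. Psmc6 gave 148, 137, 123 and 100 CPM in knockout replicates 1 to 4, against 73.9, 74.0, 90.5 and 94.4 CPM in control replicates 1 to 4. All 4 knockout libraries stood above all 4 controls, with knockout replicate 4 closest to them. The log2 fold change was 0.61 ± 0.16 (SE), a 1.53-fold higher level (95% interval 1.20 to 1.94), with an adjusted p of 0.0373. The adjusted p exceeded the threshold when certain single libraries were left out, at 0.136, 0.143 and 0.0941 without knockout replicates 1, 2 and 3 and at 0.122 and 0.0741 without control replicates 2 and 3. Psmc6 lies on the plus strand of chromosome 14 from 45329788 to 45349705 (GRCm38, GENCODE M21).

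Psmc2, another ATPase of the ring, gave 34.5, 30.5, 31.5 and 27.1 CPM in the knockout and 16.3, 22.4, 21.6 and 27.5 CPM in the control. Control replicate 4 reached the lowest knockout library, and the log2 fold change was 0.49 ± 0.20 (SE, adjusted p = 0.198). The other ATPase genes, Psmc1, Psmc3, Psmc4 and Psmc5, had log2 fold changes of 0.23, -0.02, -0.36 and -0.29 and did not pass. Psmc4 gave 9.80 CPM in knockout replicate 1 and 22.82 to 31.26 CPM in the other knockout libraries, against 24.65 to 31.33 CPM in the control. The 6 ATPases form a single ring in equal number, yet the mean tag level in the knockout ran from 22.5 CPM for Psmc4 to 734 CPM for Psmc3, 32.6-fold. In the control it ran from 21.9 CPM for Psmc2 to 744 CPM for Psmc3, 33.9-fold. The summed ATPase level was 1548 ± 91.3 CPM in the knockout and 1488 ± 388 CPM in the control (SD, n = 4 each), where control replicate 1 stood at 2031 and control replicate 4 at 1116 CPM.

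The non-ATPase genes of the base encode scaffold subunits and a ubiquitin receptor. Psmd1, a scaffold, gave 54.9, 64.6, 55.0 and 54.7 CPM in the knockout and 46.9, 56.2, 48.5 and 58.5 CPM in the control. Psmd1 had a log2 fold change of 0.12 ± 0.16 (SE, adjusted p = 0.756). Psmd4, which binds ubiquitin chains, gave 378, 394, 392 and 377 CPM in the knockout, against 603, 389, 398 and 295 CPM in the control. The knockout libraries lay close together and inside the control range, and the log2 fold change was -0.13 ± 0.18 (SE, adjusted p = 0.788), or 0.10 without control replicate 1. Psmd2, the other scaffold, had a log2 fold change of 0.04.

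The lid removes ubiquitin before a substrate is degraded. None of its 8 genes among the members passed the test (median log2 fold change 0.10, or -0.02 without control replicate 1). Psmd14, the deubiquitinase of the lid, gave 119, 136, 108 and 123 CPM in the knockout and 66.9, 67.4, 88.4 and 121 CPM in the control. Control replicate 4 stood inside the knockout range and the other controls stood below it. The log2 fold change of Psmd14 was 0.50 ± 0.19 (SE, adjusted p = 0.162), and 0.70 without control replicate 4, where it passed the test (adjusted p = 0.00848). It was 0.40 without control replicate 2 and did not pass (adjusted p = 0.370). Psmd13 gave 617, 626, 594 and 502 CPM in the knockout and 904, 689, 608 and 646 CPM in the control, with a log2 fold change of -0.28 ± 0.15 (SE, adjusted p = 0.348). Its exons share 342 bases with Sirt3 on the opposite strand. Psmd7, which pairs with Psmd14 in the lid, had a log2 fold change of 0.29 and passed the test without control replicate 1 (adjusted p = 0.0290), where 8.12% of all genes passed. The other 5 lid genes, Psmd3, Psmd6, Psmd8, Psmd11 and Psmd12, had log2 fold changes from -0.08 to 0.16. The summed lid level was 2022 ± 108 CPM in the knockout and 2001 ± 126 CPM in the control (SD, n = 4 each).

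**Figure D2:**
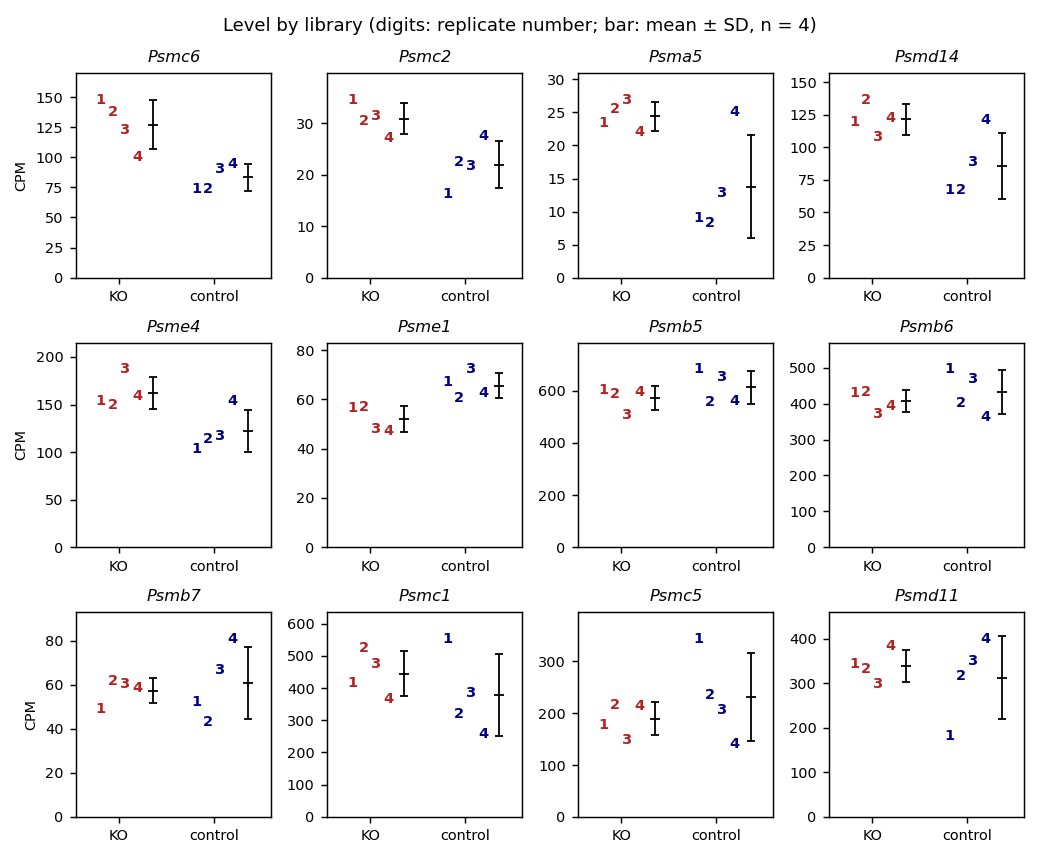
Each panel plots the level of 1 gene in CPM by library, with digits for the replicate number, Jagn1 knockout at left and control at right, and a bar for the mean ± SD of the group (n = 4). The groups are apart for Psmc6 and Psme1, while for Psma5, Psmd14, Psme4 and Psmc2 control replicate 4 reaches the knockout libraries and for Psmc1, Psmc5 and Psmd11 control replicates 1 and 4 lie at the 2 ends of the control group.

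Activators bind the end of the core in place of the 19S particle. Psme1 and Psme2 encode the subunits of the interferon-inducible PA28 ring. Psme1 gave 56.5, 56.8, 47.9 and 47.1 CPM in the knockout, against 66.9, 60.6, 72.1 and 62.7 CPM in the control, so that every knockout library lay below every control. The log2 fold change of Psme1 was -0.33 ± 0.15 (SE), which did not pass the test (adjusted p = 0.264). Psme2 gave 116, 110, 93.7 and 142 CPM in the knockout and 80.9, 123, 145 and 155 CPM in the control, a log2 fold change of -0.13 ± 0.20 (SE, adjusted p = 0.804). Psme2b is a near copy of Psme2, 99.0% identical over 300 bases at the 3′ end, so that their counts cannot be told apart with certainty, and it gave 1.08 to 2.75 CPM in the knockout and 0.139 to 2.1 CPM in the control.

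Psme3 encodes a nuclear relative of the PA28 subunits. It gave 36.3, 34.8, 29.0 and 27.5 CPM in the knockout and 24.2, 29.5, 37.2 and 30.1 CPM in the control, with overlapping groups and a log2 fold change of 0.08 ± 0.19 (SE, adjusted p = 0.894), or -0.02 without control replicate 1. Psme4 encodes PA200, an activator that needs no ATP. It gave 154, 150, 187 and 159 CPM in the knockout and 104, 114, 117 and 154 CPM in the control, with only control replicate 4 in the knockout range. For Psme4 the log2 fold change was 0.41 ± 0.15 (SE, adjusted p = 0.162), and 0.53 without control replicate 4, where it passed the test (adjusted p = 0.0252). It was 0.34 without knockout replicate 3 and did not pass (adjusted p = 0.392).

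Assembly chaperones bind nascent subunits and are absent from the finished particle. None of the 7 tested passed, and their median log2 fold change was 0.24. It ran from 0.13 without control replicate 3 to 0.35 without knockout replicate 1. Psmd5, a chaperone of the ATPase ring, gave 8.06, 12.2, 10.4 and 9.98 CPM in the knockout and 1.69, 3.71, 7.80 and 10.8 CPM in the control. Its groups overlapped through control replicate 4, and the log2 fold change was 0.74 ± 0.43 (SE, adjusted p = 0.405). Psmg2, which with Psmg1 starts the alpha ring, gave 55.9, 53.5, 52.6 and 62.8 CPM in the knockout and 18.7, 33.4, 44.2 and 67.1 CPM in the control. For Psmg2 it was 0.45 ± 0.28 (SE, adjusted p = 0.435), with 0.22 without control replicate 1 (adjusted p = 0.610) and 0.80 without control replicate 4 (adjusted p = 0.0355), where it passed beside 8.88% of all genes. Psmg1, Psmg3, Psmg4, Psmd9 and Psmd10 had log2 fold changes of 0.33, -0.04, 0.24, -0.16 and -0.20. The chaperones' summed level was 193 to 228 CPM in the knockout libraries and ran from 130.5 CPM in control replicate 1 to 262.5 CPM in control replicate 4.

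Psmf1, which encodes a protein first described as a proteasome inhibitor, gave 16.7, 24.0, 23.2 and 19.8 CPM in the knockout and 25.4, 23.9, 15.2 and 17.2 CPM in the control. Its log2 fold change was 0.04 ± 0.23 (SE, adjusted p = 0.958), and it was below 0 when any of 4 libraries was left out. Psmc3ip matches the naming pattern but encodes a meiotic recombination protein and not a subunit. It gave 7.92, 8.05, 2.75 and 5.05 CPM in the knockout and 6.74, 12.1, 10.2 and 4.19 CPM in the control, a log2 fold change of -0.47 ± 0.40 (SE, adjusted p = 0.603).

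Set side by side, the classes had median log2 fold changes of 0.01 for the 15 genes of the 20S core, 0.11 for the 6 ATPases, 0.10 for the 8 lid genes and 0.08 for the 5 activators. The 20S core median is the value of Psmb11, whose counts are of uncertain source. The activators include the low-count near copy Psme2b, and with a stricter count filter, which drops Psme2b, their median was -0.03. Single libraries moved these medians and turned their signs. The 20S core median ran from -0.05 without knockout replicate 4 to 0.07 without control replicate 4, and the ATPase median from -0.03 without control replicate 4 to 0.27 without control replicate 1. The lid median ran from -0.02 without control replicate 1 to 0.18 without control replicate 4, and the activator median from -0.02 without control replicate 1 to 0.19 without control replicate 3. The summed 20S core level was 3547 ± 192 CPM in the knockout and 3622 ± 258 CPM in the control. That of the 17 members of the 19S particle was 4307 ± 201 CPM in the knockout and 4249 ± 431 CPM in the control (SD, n = 4 each). For each class the groups overlapped. The activators summed to 364 ± 10.5 CPM in the knockout and 345 ± 54.8 CPM in the control (SD, n = 4 each). No difference between classes was tested.

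**Figure D3:**
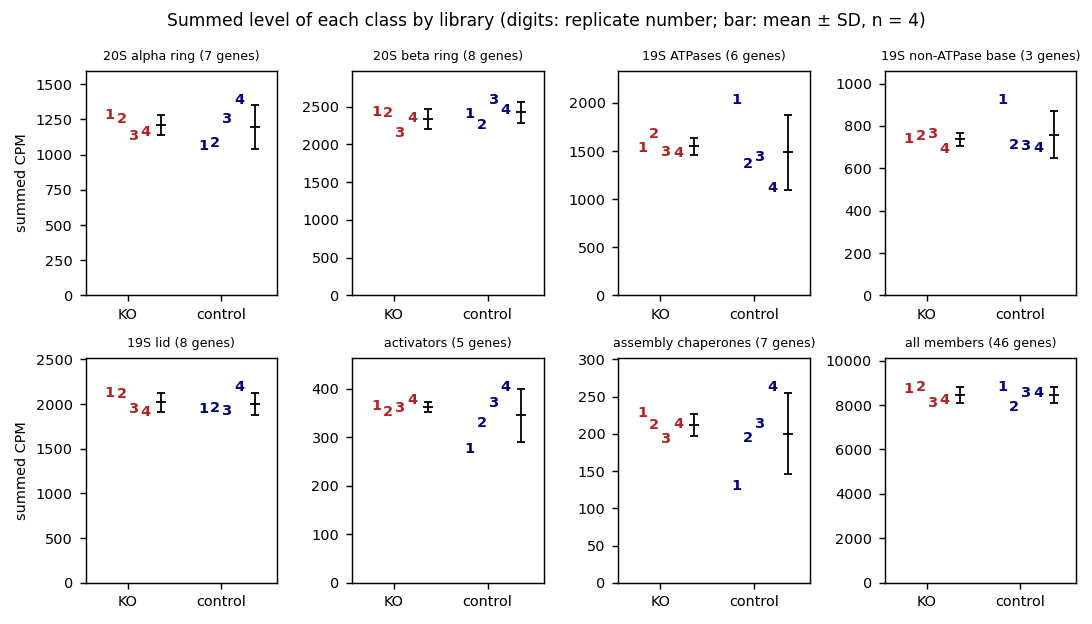
Each panel plots the summed CPM of 1 class by library, with digits for the replicate number, Jagn1 knockout at left and control at right, and a bar for the mean ± SD (n = 4). The groups overlap in every panel, and the ATPases run from 1480 to 1680 CPM in the knockout and from 1116 to 2031 CPM in the control.

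The control libraries varied more than the knockout libraries in most proteasome genes. The standard deviation of log2 CPM was larger in the control for 38 of 46 members (82.6%), with a median of 0.161 in the knockout and 0.352 in the control. Over all genes tested it was larger in the control for 71.6%, with medians of 0.25 in the knockout and 0.396 in the control. Over the members, the root mean square log2 deviation from the group mean was 0.462 and 0.453 in control replicates 1 and 4, against 0.269 and 0.312 in control replicates 2 and 3, and replicates 1 and 4 often lay at opposite ends. In 16 members control replicate 1 was lowest and control replicate 4 highest of the controls, among them Psma2, Psma3, Psmc2, Psmc6, Psmd11, Psmd14, Psme4 and Psmg2. In 7 members, namely Psmb6, Psmb11, Psmc1, Psmc3, Psmc5, Psmd4 and Psmd7, the order was the reverse. The first pattern was seen in 34.8% of members and 19.3% of all genes tested, and the second in 15.2% of members and 18.5% of all genes. The difference between the members and all genes was not tested. Control replicate 1 gave 2031 CPM of ATPase tags and 130.5 CPM of chaperone tags, and control replicate 4 gave 1116 and 262.5 CPM. Without both libraries 4 members passed the test, all as higher in the knockout (Psma5, Psmc6, Psmd14 and Psme4), beside 8.76% of all genes tested. The source of the spread between these 2 libraries was not tested.

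**Figure D4:**
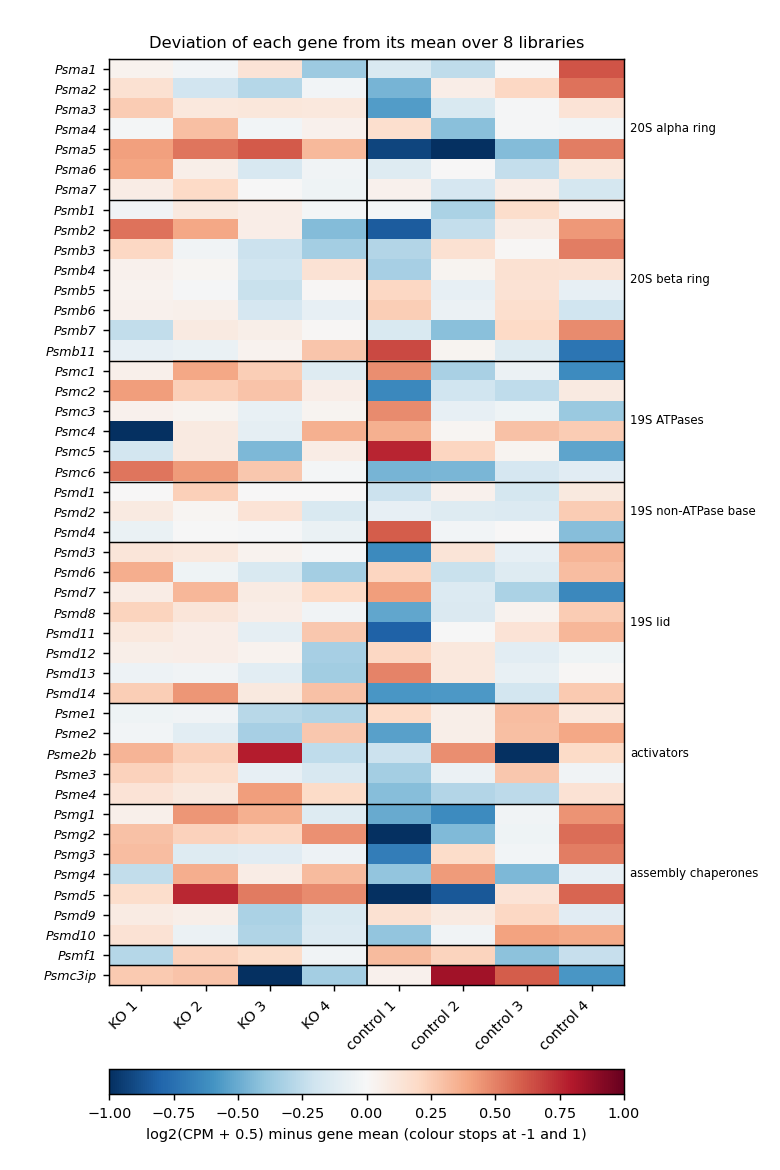
The map shows, for each of the 46 tested proteasome genes (rows, by class) in each library (columns, 4 Jagn1 knockout libraries at left and 4 controls at right), log2(CPM + 0.5) minus the gene's mean over the 8 libraries. Control replicates 1 and 4 carry the deepest colours, often of opposite sign in the same row, while most knockout squares are pale.

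The abundance order of the genes was nearly the same in both groups. Psmc3, Psmd13, Psmb5, Psmb4, Psmb6, Psmc1, Psmd8, Psmd4, Psmb1 and Psma2 held 58.7% of the summed CPM of all tested members. Spearman's rho between the mean CPM in the knockout and in the control was 0.98 over the 46 members, a description over genes measured in the same libraries. The 3′ tags of some members can be assigned to copies elsewhere in the genome. For 11 members, Psma3, Psma4, Psma5, Psmb3, Psmb5, Psmc1, Psmd2, Psmd11, Psme1, Psme2 and Psme2b, at least 200 of the last 300 transcript bases match a pseudogene or another member at 95% identity or more. Their levels are uncertain to that extent. Exons of 13 of the 47 members share bases with another gene. Exons of Psmb7, Psmc3, Psmc3ip and Psmd9 share 405, 215, 385 and 1849 bases with a gene on the opposite strand (Nek6, Slc39a13, Mlx and Gm26745). For 4 members, Psmb5, Psmd1, Psmg3 and Psme2b, the overlapping gene is on the same strand. Whether strand was used in counting is not known from the labels.

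Genes that control or supply the proteasome were examined in 3 lists. The lists were chosen with earlier results of these data known, so that the shares below describe the lists only. Of 12 genes that control proteasome transcription or process its regulators, 2 passed the test (16.7%, where 5.74% of all genes did), both higher in the knockout, and the median log2 fold change was 0.33. Nfe2l1, which encodes the transcription factor that drives proteasome genes, gave 198, 190, 187 and 171 CPM in the knockout, against 84.1, 98.6, 98.2 and 107 CPM in the control. All knockout libraries stood well above all controls, with a log2 fold change of 0.94 ± 0.14 (SE, 1.92-fold, 95% interval 1.57 to 2.35, adjusted p = 0.000566). Sel1l, a subunit of the ER-membrane ubiquitin ligase complex that also turns over NFE2L1 protein, gave 1308, 1383, 1225 and 1346 CPM in the knockout and 765, 804, 809 and 777 CPM in the control. For Sel1l the log2 fold change was 0.74 ± 0.12 (SE, adjusted p = 0.00155). Syvn1, also of this list, gave 84.72, 120.6, 112.5 and 119.4 CPM in the knockout and 20.23, 44.47, 62.25 and 165.5 CPM in the control. Its log2 fold change of 0.57 ± 0.48 (SE) did not pass (adjusted p = 0.605). The genes whose products process NFE2L1, Ddi2, Ngly1 and Vcp, had log2 fold changes of 0.48, 0.21 and 0.14 and did not pass. Nfe2l2, a related factor of the oxidative stress response, had -0.08. Nploc4, Ufd1l, Bach1, Stat3 and Foxo4 had log2 fold changes from -0.37 (Foxo4) to 0.47 (Bach1) and did not pass.

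Of 5 genes of ubiquitin supply, 1 passed the test (20%, where 5.74% of all genes did). Ubb, a polyubiquitin gene, gave 190, 176, 187 and 124 CPM in the knockout, against 79.2, 90.7, 87.2 and 73.9 CPM in the control. The groups did not overlap, which held for 13.1% of all genes, and the log2 fold change was 1.03 ± 0.16 (SE, 2.05-fold, adjusted p = 0.00107). Rps27a, a fusion of ubiquitin and a ribosomal protein, gave 3909, 4510, 4271 and 4133 CPM in the knockout and 1389, 2113, 3230 and 4393 CPM in the control. Control replicate 4 lay in the knockout range, and the log2 fold change of 0.60 ± 0.26 (SE) did not pass (adjusted p = 0.240), but at 0.90 without control replicate 4 it did (adjusted p = 0.0100), and it was 0.38 without control replicate 1 (adjusted p = 0.245).

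None of 17 cofactor genes passed the test in edgeR, and their median log2 fold change was 0.04. They include Adrm1 and Shfm1, which encode subunits that the naming pattern does not match. The classes above leave these genes out, and Shfm1 had a log2 fold change of -0.19. An unadjusted p under 0.05 was reached by 2 of the 17, Ubqln4 and Zfand5 (11.8%, against 18% of all genes). Log2 fold changes were 0.11 for the ubiquitin receptor gene Adrm1, 0.01 and -0.30 for the deubiquitinase genes Usp14 and Uchl5, and 0.04 for the maturation factor gene Pomp. Pomp, which encodes the chaperone of beta ring assembly, gave 830 to 1033 CPM in the knockout and 785 to 966 CPM in the control. Zfand5, whose protein stimulates the proteasome, gave 83.3, 91.6, 71.6 and 104 CPM in the knockout and 48.3, 55.0, 64.8 and 87.7 CPM in the control. Zfand5 had a log2 fold change of 0.45 ± 0.19 (SE, adjusted p = 0.222), and 0.64 without control replicate 4, where it passed (adjusted p = 0.0264). It was 0.34 without control replicate 1 and did not pass (adjusted p = 0.295). Ubqln4, a shuttle for ubiquitinated proteins, gave 19.3, 27.7, 27.4 and 27.8 CPM in the knockout and 43.5, 40.8, 30.1 and 30.5 CPM in the control, with no overlap. Its log2 fold change was -0.50 ± 0.20 (SE, adjusted p = 0.191). Groups without overlap made up 5.88% of the cofactor genes and 13.1% of all genes.

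**Figure D5:**
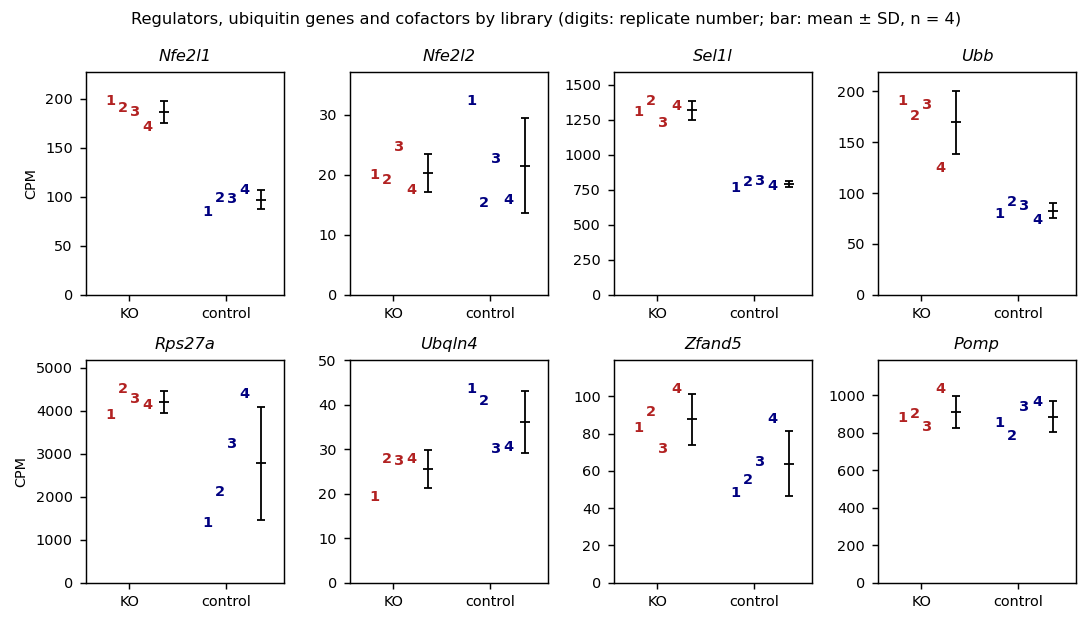
Each panel plots the level in CPM by library of a regulator, ubiquitin or cofactor gene, with digits for the replicate number, Jagn1 knockout at left and control at right, and a bar for the mean ± SD (n = 4). The groups are apart for Nfe2l1, Sel1l, Ubb and Ubqln4, whereas in Nfe2l2, Rps27a, Zfand5 and Pomp they overlap.

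Promoter windows were searched for the motif of NFE2L1, since its gene was higher while the summed level of proteasome genes was not. The RefSeq table (GRCm38.p6) holds a window of 250 bases before to 50 bases after the start for 39 of the 47 members. The antioxidant response element core, TGACNNNGC, bound by NFE2L1 and NFE2L2, was found on either strand in 6 of the 39 (15.4%), Psmb5, Psmb6, Psmc6, Psmd12, Psme4 and Psmd9. It was found in 14% of all 27025 symbols with a window and in 17% of the 8033 tested genes with one. Sequence upstream of the start is shown for the catalytic genes Psmb5 and Psmb6 and for Psmc6, the member that passed the test, 5′ to 3′ on the strand of the gene, with the match in capitals (in Psmc6 it is on the opposite strand).
Psmb5, chr14:54618023-54618062, minus strand: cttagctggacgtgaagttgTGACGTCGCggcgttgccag
Psmb6, chr11:70525328-70525356, plus strand: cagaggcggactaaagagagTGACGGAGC
Psmc6, chr14:45329574-45329787, plus strand: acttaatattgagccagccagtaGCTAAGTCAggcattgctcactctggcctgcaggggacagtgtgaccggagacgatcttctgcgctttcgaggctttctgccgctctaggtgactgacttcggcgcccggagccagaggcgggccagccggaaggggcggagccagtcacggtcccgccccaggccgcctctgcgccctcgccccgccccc

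The matches begin 7 bases before the RefSeq start in Psme4, 9 in Psmb6, 31 in Psmd9, 47 in Psmb5, 227 in Psmc6 and 247 in Psmd12. In that order the log2 fold changes of these genes were 0.41, -0.08, -0.16, -0.10, 0.61 and -0.08, and only Psmc6 among them passed the test. A relation between the matches and the changes was not tested.

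The ETS core, CCGGAAG, bound by a family of B cell and ubiquitous factors, was found in 15 of the 39 members (38.5%), against 9.93% of all symbols and 23.1% of tested genes. It is also present in the Psmc6 window shown, and its surroundings are shown for Psmc2, the ATPase gene with the second smallest p, where the match is on the opposite strand.
Psmc2, chr5:21785171-21785217, plus strand: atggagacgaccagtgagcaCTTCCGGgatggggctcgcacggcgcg

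The other motifs were CCAAT, bound by NF-Y, GAANNTTC, the heat shock element core, and TGATGNAA, the ATF4 C/EBP element core. CCAAT was found in 14 of 39 members (35.9%, against 41.1% of all symbols and 43.8% of tested genes). GAANNTTC was found in 2 (5.13%, against 9.04% and 6.87%) and TGATGNAA in 1 (2.56%, against 4.51% and 2.83%). All were searched on both strands, and these motifs may overlap one another. A match describes letters in a window and is not a bound site.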

How the data were processed

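QuantSeq 3′ tag libraries were made from 500 ng of RNA each, per the labels' protocols. The deposited files hold raw read counts (whole numbers) by gene symbol. The submitters' processing notes name TopHat2 2.1.1, HTSeq 0.6.1, SAMtools 1.3.1, BWA 0.7.12 and mm10. What each did, which annotation was used and whether strand was counted is not given there, and counts may include PCR copies. Within groups, no pair of libraries agreed within sampling noise (chi-square per degree of freedom 6.60 to 94.2, genes with at least 20 pooled counts).

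Genes were filtered with filterByExpr (minimum count 10, minimum total 15), scaled with TMM, and tested with edgeR 4.0.16 (R 4.3.3; quasi-likelihood F-test, robust, two-sided, group as the only term), with Benjamini-Hochberg adjustment over 9904 genes and a threshold of 0.05. The biological coefficient of variation was 0.274. SE is the log2 fold change over the square root of the F statistic, and 95% intervals use that SE. Alternatives were DESeq2 1.42.0, limma-voom (limma 3.58.1) with sample weights, other scalings and filters, a replicate block, and libraries left out. Members and lists were chosen with earlier results of these data known. Values are given in full for each member that passed, the 2 members of each class with the smallest p, the catalytic subunits and activators, and likewise for the other lists. The steps were tested on simulated counts. Transcript ends were compared with BLAST 2.17.0 on GENCODE M21 transcripts. The cofactor gene Paaf1 was not analysed here, and 1 other gene of the lists is not reported here.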

Additional observations from a re-analysis of the deposited data

Results flagged for a closer look

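In 6 of 92 groups of 4 libraries (46 genes in 2 groups), or 6.52%, 1 library lay far from the other 3, where chance gives about 1 in 20. In the knockout, replicate 1 gave 107 CPM of Psma3 against 96.4 to 97.2 CPM in the other 3, and replicate 2 gave 64.6 CPM of Psmd1 against 54.7 to 55.0 CPM. Knockout replicate 3 gave 505 CPM of Psmb5 against 586 to 603 CPM in the other 3, and 695 CPM of Psmc3 against 742 to 751 CPM. Knockout replicate 4 gave 28.0 CPM of Psmd12 against 36.5 to 37.2 CPM. In the control, replicate 4 gave 345 CPM of Psmd2 against 262 to 273 CPM in the other 3.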

How the results depend on the processing

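The count of proteasome members that passed the test was 1 with DESeq2, other scalings, other filters and fits without robust estimation, 4 with limma-voom and sample weights, 4 without control replicates 1 and 4, and 0 to 5 when 1 library was left out. Over all genes the count was 568, and 855 with DESeq2, 1070 with limma-voom, 901 without control replicates 1 and 4, and 270 to 892 with 1 library left out. No member passed as lower in any setting. Same-numbered libraries deviated together only weakly (r from -0.0034 to 0.066). The labels do not state whether equal numbers pair the samples, and a weak correlation cannot settle it. With a replicate block 0 members passed (Psmc6 0.60, adjusted p = 0.0801) and 509 genes in all. Nfe2l1, Sel1l and Ubb passed in 17 of 17 alternatives. Medians and values near 0 also changed sign. With 1 library left out, the lid median ran from -0.021 to 0.18, Psmd4 from -0.28 to 0.099, Psmf1 from -0.078 to 0.16, Psmb7 from -0.22 to 0.077 and Psme3 from -0.015 to 0.19. Psmb7 was 0.032 and Psme3 -0.0011 with limma-voom. When control replicates 1 and 4 were left out together, Psmb7 was 0.062, Psme3 -0.064 and the activator median, which is Psme3's value, -0.064. With the last base of a motif left out, 51.3% of members held the antioxidant response element core, against 44.4% of all symbols and 43.9% of tested genes. The heat shock core was held by 23.1%, 39.9% and 31.1% in that order, and CCAA by 92.3%, 91.7% and 90.6%. The causes were not tested. Leaving out a library can also change the genes tested, and depth limits Psma8, Psme2b and Psmg1.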
